A study of Mus musculus with 16 samples.

Results

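The immunoglobulin Fc receptors were followed in lymph node sinus macrophages through 9 genes chosen by symbol: Fcgr1, Fcgr2b, Fcgr3, Fcgr4, Fcgrt, Fcer1g, Fcer2a, Fcrla and Fcrl1. They are 9 of the 55423 rows of the count table, and all 9 passed the filter on low counts that left 21085 genes for testing. The genes were picked by name, with earlier results of these data known, so the choice was not blind to them.

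Fc receptors bind the constant part of antibodies and couple antibody-coated antigen to the cells that carry them. Fcgr1, Fcgr3 and Fcgr4 encode activating receptors for IgG, which signal through the common gamma chain encoded by Fcer1g, and Fcgr2b encodes the inhibitory IgG receptor, whose cytoplasmic motif recruits phosphatases. Fcgrt encodes the heavy chain of the neonatal Fc receptor, which pairs with beta-2 microglobulin inside the cell and returns IgG from endosomes. Fcer2a encodes CD23, the low-affinity IgE receptor, and Fcrla and Fcrl1 encode Fc receptor-like proteins best known from B cells. In the lymph node, subcapsular sinus macrophages hold antigen and immune complexes at the surface that faces the incoming lymph.

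Gene expression was measured by RNA sequencing of subcapsular sinus macrophages (SSMs) and medullary sinus macrophages (MSMs) from male C57B/6 mice. Every mouse carried a MOC2 squamous cell carcinoma, grown for 2 weeks from 500000 cells injected intradermally in the flank, so that the non-draining nodes (ndLN) came from the same tumor-bearing animals as the tumor-draining nodes (tdLN). No group without a tumor was sequenced here, and the labels give no age. The tdLN were inguinal nodes on the tumor side, and the ndLN were the opposite inguinal, the axillary and the brachial nodes. Each pool joined the nodes of 2 mice with tumors of similar size, and each of the 4 groups (SSM ndLN, SSM tdLN, MSM ndLN and MSM tdLN) had 2 pools by the labels, so n = 2 in every group. The methods of the study number more pools than the labels do, with a number for each lane, and lanes of a library were counted here as 1 sample because they differed by no more than sampling noise. About 10000 live CD45+ CD11b+ CD169+ cells without CD3, B220 or Ly6G were sorted for a library. Low side scatter without CD11c defined SSMs, and high side scatter with CD11c defined MSMs. Antibodies that block Fc receptors were present during staining.

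The 8 libraries held between 42972328 and 48130352 reads, which puts a floor of 3 counts at 0.0623 to 0.0698 CPM (counts scaled to library size). Levels are CPM scaled for library composition, or the length-scaled unit TPM where genes are compared with each other, which also divides by gene length. Gene length is that of all merged exons, and the order of genes with close levels can depend on that choice. Of the macrophage markers, Csf1r lay between 362 and 921 TPM in SSMs and between 87.9 and 196 TPM in MSMs, and Cd68 between 400.0 and 1325 TPM in all libraries. Siglec1, the gene of the sorting marker CD169, lay between 4.44 and 27.6 TPM in SSMs and between 0.295 and 2.33 TPM in MSMs. Vsig4 had 0 counts in all 8 libraries. Marker genes of other cell types were detected as well. The summed level of 8 natural killer (NK) and cytotoxic markers was 7081 to 8501 TPM in SSM ndLN and 4145 to 6403 TPM in SSM tdLN, against 43.6 to 251 TPM in MSMs. For mast cell and basophil markers the sum was 3878 to 6348 TPM in SSM ndLN, 434 to 1179 TPM in SSM tdLN and 80.9 to 205 TPM in MSMs. Conventional dendritic cell markers summed to 302 to 426 TPM in SSMs and to 1493 to 1877 TPM in MSMs. Several of these cell types carry Fc receptors themselves. In such bulk samples, fewer cells of a type and less RNA per cell cannot be told apart.

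**Figure D1:**
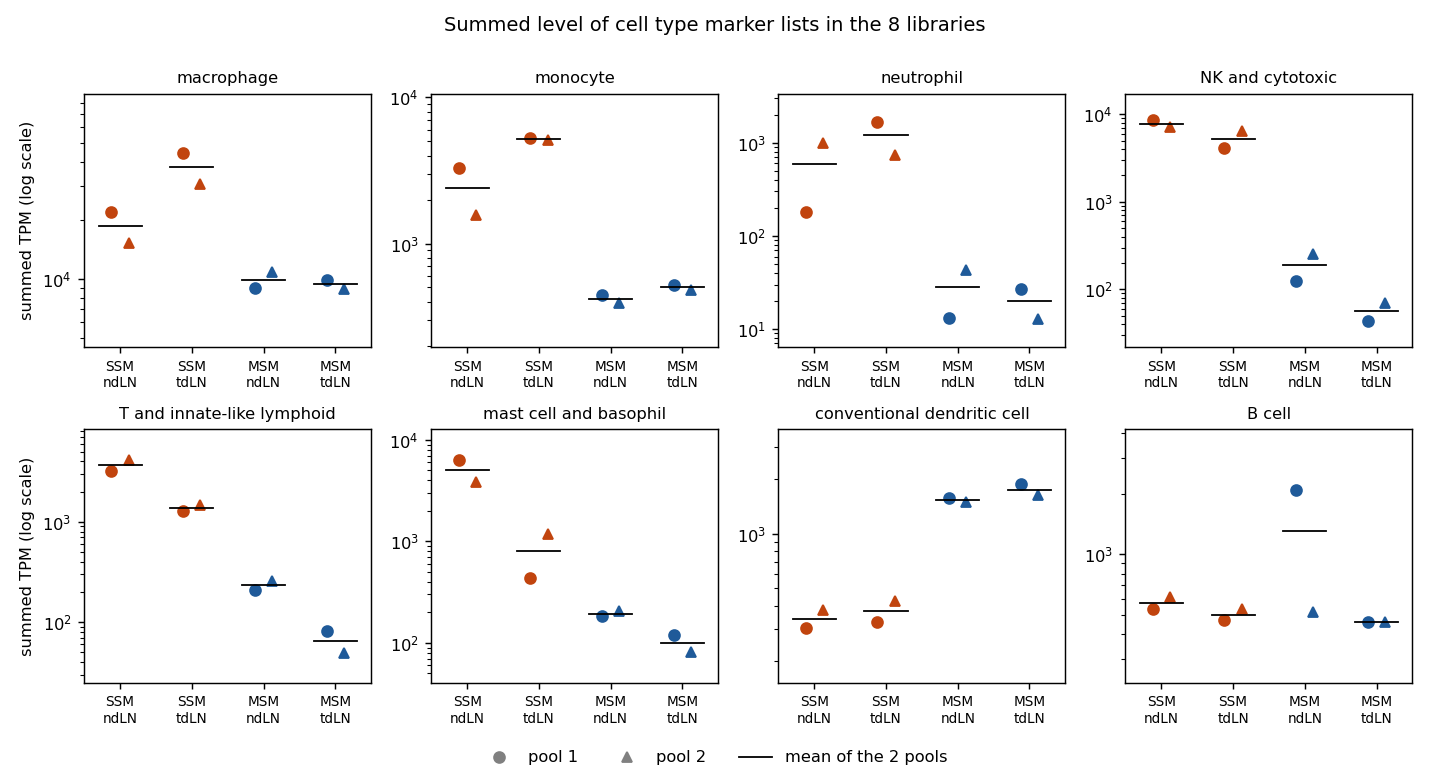
Summed TPM (log scale) of 8 cell type marker lists in the 8 libraries, with circles for pool 1, triangles for pool 2 and a line at the mean. Macrophage markers were highest in SSM tdLN (30611 to 44473 TPM), where Lyz2 alone made up 28009 to 41360 TPM. NK and cytotoxic, T cell and mast cell lists were higher in both SSM groups than in MSMs. The dendritic cell list was higher in MSMs.

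Per length, Fcer1g was the most abundant member in all 4 groups. Its mean was 3148 TPM in SSM ndLN, 4795 TPM in SSM tdLN, 593 TPM in MSM ndLN and 1050.1 TPM in MSM tdLN. In every library its TPM was at percentile 99.587 or higher among the 55240 rows matched to the annotation, expressed or not. The gene next in order differed between the subsets. In SSMs it was Fcgr3, at 200.4 TPM in ndLN and 353 TPM in tdLN, whereas in MSMs it was Fcgrt, at 302 and 347 TPM. In SSM tdLN the order continued with Fcgr2b at 321, Fcgr1 at 172, Fcgr4 at 97.5 and Fcgrt at 80.03 TPM, and only Fcgr3 and Fcgr2b overlapped between neighbours. In SSM ndLN Fcgr2b (75.4 TPM), Fcgr1 (51.6 TPM), Fcgr4 (32.2 TPM) and Fcgrt (26.8 TPM) followed Fcgr3, and each of these neighbours overlapped with the next. In MSM ndLN the genes after Fcgrt were Fcgr2b (66.1 TPM), Fcrla (55.7 TPM), Fcgr3 (28.2 TPM), Fcgr4 (17.5 TPM) and Fcrl1 (12.7 TPM), of which the last pair overlapped. In MSM tdLN they were Fcgr2b (87.5 TPM), Fcgr3 (51.04 TPM), Fcrla (29.4 TPM), Fcgr4 (23.1 TPM) and Fcgr1 (11.2 TPM), where Fcrla and Fcgr4 overlapped. Fcer2a was last in every group, at 0.181 TPM in SSM ndLN, 1.61 TPM in SSM tdLN, 2.86 TPM in MSM ndLN and 4.35 TPM in MSM tdLN. It overlapped with Fcgr1 in MSM ndLN and with Fcrl1 in MSM tdLN.

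**Figure D2:**
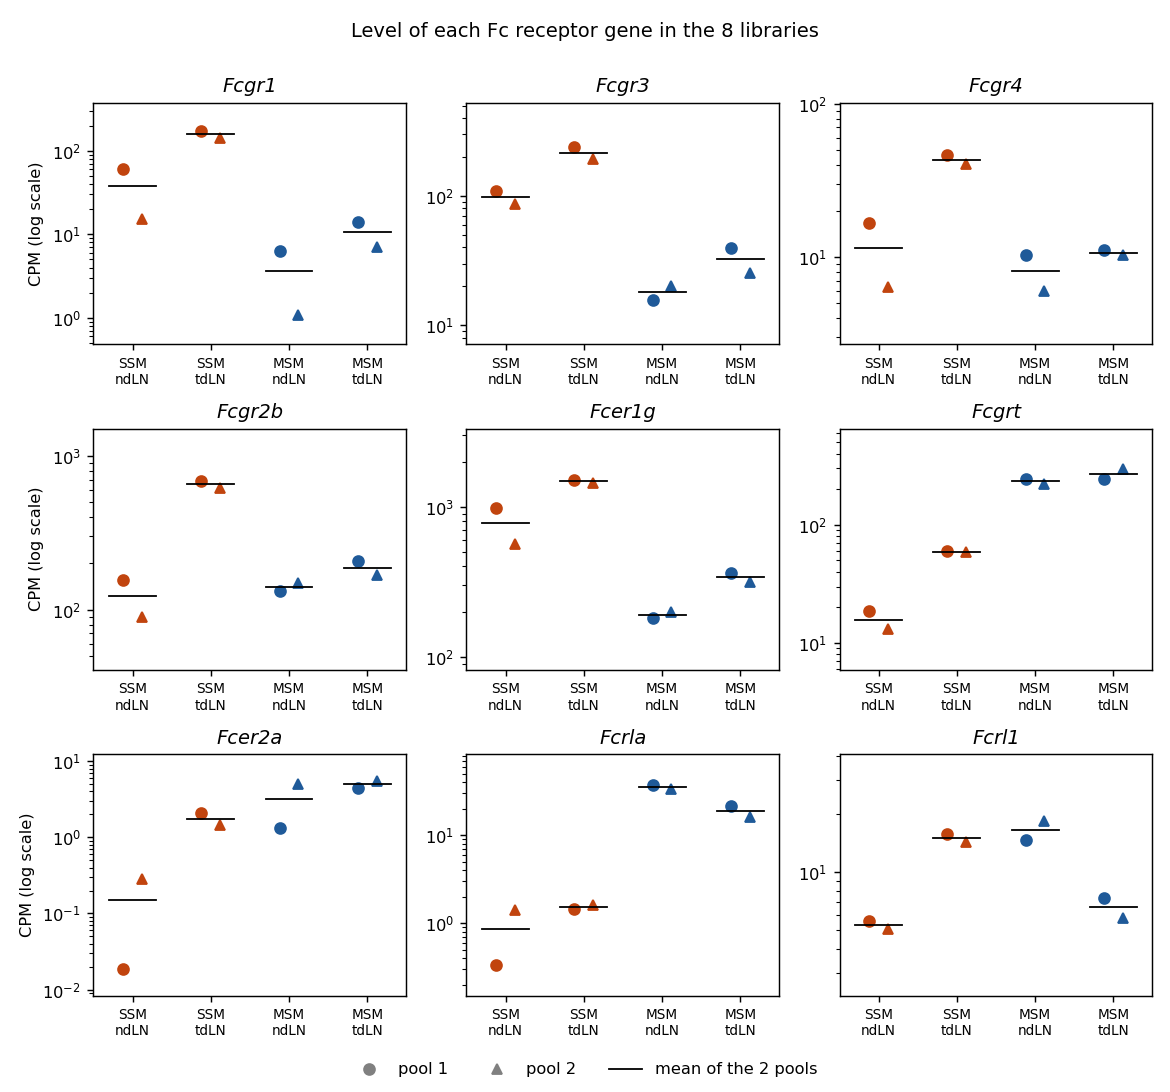
CPM (log scale) of each Fc receptor gene in the 8 libraries, with circles for pool 1, triangles for pool 2 and a line at the mean of both pools. Fcgr1, Fcgr3 and Fcer1g lay above all MSM libraries in every SSM library, and Fcgrt and Fcrla lay below them. The share of all genes that separate the subsets in this way was not computed. Fcgr2b stood highest in SSM tdLN at 624 and 686 CPM.

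The members Fcgr2b, Fcgr3, Fcgr4, Fcer1g and Fcrla lie within a short stretch of chromosome 1 on GRCm38. Fcgr2b (chr1:170958617-170976547, minus strand) and Fcgr3 (chr1:171051174-171064935, minus strand) are close copies over the exons that code for the parts that bind IgG, although the former inhibits and the latter activates. Their coding sequences aligned over 509 bases, of which 491 (96.5%) were identical. A stretch of 120 coding bases from exon 3 of each gene is shown, because a read from it can be assigned to a gene only through the single differing base, in capitals. The stretch lies at chr1:170967984-170968103 for Fcgr2b and at chr1:171057695-171057814 for Fcgr3, both on the minus strand.
Fcgr2b: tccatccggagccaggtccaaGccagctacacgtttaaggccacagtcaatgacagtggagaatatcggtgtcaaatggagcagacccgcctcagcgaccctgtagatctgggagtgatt
Fcgr3: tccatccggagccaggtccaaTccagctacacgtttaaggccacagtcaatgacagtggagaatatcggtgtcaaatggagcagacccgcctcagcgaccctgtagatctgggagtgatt
Windows of 50 bases shared by both genes made up 2.92% of the windows of Fcgr2b and 9.58% of those of Fcgr3. Counts of either gene that rest on these windows are uncertain, while most of each transcript is its own.

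The first question was how the subsets differ. In ndLN, 6 of the 9 members passed the test between SSMs and MSMs, against 12.1% of all genes tested. Of these, 3 were higher in SSMs (Fcgr1, Fcgr3 and Fcer1g), against 6.01% of all genes, and 3 were lower (Fcgrt, Fcrla and Fcrl1), against 6.06%. In tdLN, 7 of 9 passed, against 8.69% of all genes. Here 5 (Fcgr1, Fcgr2b, Fcgr3, Fcgr4 and Fcer1g) were higher in SSMs, against 5.16% of all genes, and 2 (Fcgrt and Fcrla) were lower, against 3.52%. A gene passed at an adjusted p-value under 0.01 in the quasi-likelihood test of edgeR, adjusted over all genes after Benjamini and Hochberg, if its normalized count also averaged over 100 per lane. The median log2 difference of the 9 members between SSMs and MSMs was -0.23 in ndLN, beside 0.09 over all genes, and 1.82 in tdLN, beside 0.02. Marker lists of other cells moved with these differences. In ndLN, SSMs had higher NK (8 of 8), T and innate-like lymphoid (10 of 10), mast cell and basophil (7 of 10), monocyte (4 of 6) and neutrophil (3 of 8) markers and lower dendritic cell markers (5 of 8), while 3 of 11 macrophage markers were higher and 2 lower. In tdLN the counts were 8 of 8, 10 of 10, 6 of 10 (with 1 lower), 6 of 6, 5 of 8 and, for lower dendritic cell markers, 6 of 8, and 4 of 11 macrophage markers were higher. The part of these cells in the receptor differences was not tested. Scaled to the macrophage markers instead of to all genes, 6 members passed in ndLN, against 9.06% of all genes, and 3 (Fcgr1, Fcgrt and Fcrla) in tdLN, against 39.1% of all genes. In tdLN that scaling put the median of all genes at -1.86, and the members' share was near that of all genes.

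The second question was how each subset differs between tdLN and ndLN. A pool held 2 tdLN, all inguinal, and 6 ndLN, which also included axillary and brachial nodes. Tumor drainage therefore cannot be told apart from node site and number. In SSMs, 3 of the 9 members passed, against 3.04% of all genes. All 3 (Fcgr2b, Fcgr4 and Fcgrt) were higher in tdLN than in ndLN, as were 1.99% of all genes, and 0 members were lower, against 1.05%. The median log2 difference of the members was 1.91, beside -0.04 over all genes. Other markers moved as well. Of 11 macrophage markers 7 were higher in SSM tdLN, and of 10 T and innate-like lymphoid markers 3 were lower, with a summed level of 3207 to 4162 TPM in SSM ndLN and 1269.6 to 1454 TPM in SSM tdLN. Of 10 mast cell and basophil markers 2 were lower and 1 higher, and of monocyte, neutrophil, plasma cell and dendritic cell markers 1 each was higher. The part of these cells in the receptor differences was not tested. In MSMs, 0 of 9 members passed, and only 0.0237% of all genes did. There, 5 members had an unadjusted p-value under 0.05 in edgeR, where 11.9% of all genes did, and 2 members (Fcgr1 and Fcrl1) passed in DESeq2, against 2.39% of all genes. Whether the difference between tdLN and ndLN itself differed between SSMs and MSMs was tested as an interaction, in which 0 of 9 members and 0.0379% of all genes passed. For the interaction, 6 members had an unadjusted p-value under 0.05 in edgeR, where 12.3% of all genes did, and 3 (Fcgr2b, Fcgrt and Fcrl1) passed in DESeq2, against 3.35% of all genes. The 4 contrasts use the same 8 libraries, so that the 2 SSM tdLN libraries enter both the subset contrast in tdLN and the node contrast in SSMs. Groups did not overlap for 57.2% of all genes between subsets in ndLN and for 56.6% in tdLN. Between nodes this held for 51.9% of all genes in SSMs and 38.5% in MSMs. A lack of overlap among 2 libraries a group is therefore a weak mark. The share of all genes that set all SSM libraries apart from all MSM libraries was not computed.

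**Figure D3:**
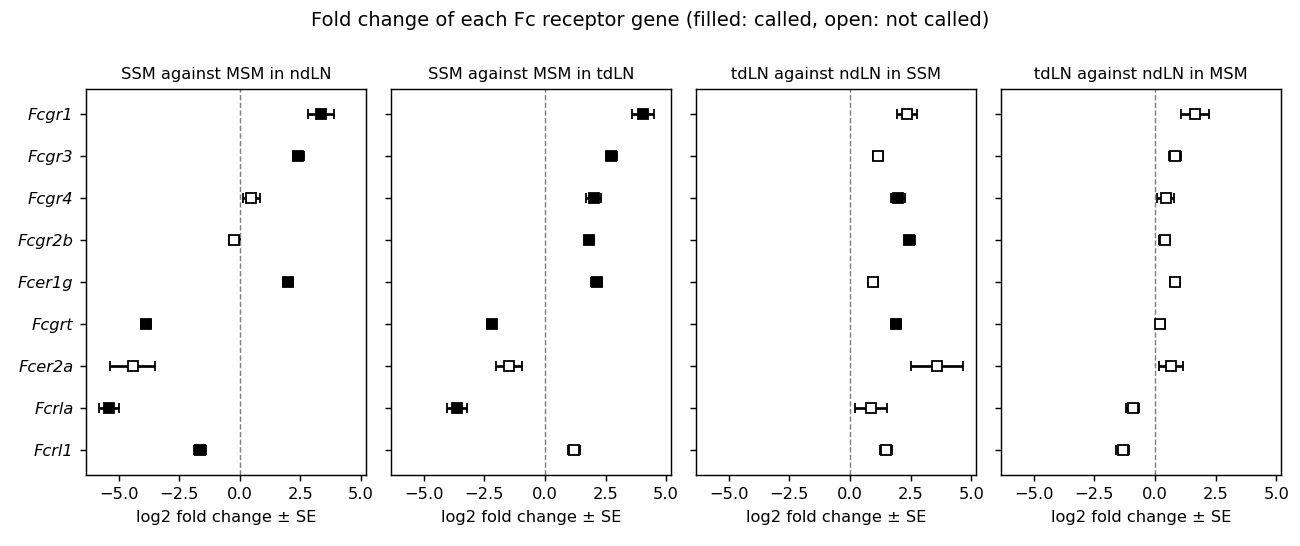
Log2 fold change of the 9 Fc receptor genes with its standard error in the 4 contrasts, with filled squares for genes that passed the test and open squares for those that did not. Fcgr1, Fcgr3 and Fcer1g lie to the right in both subset contrasts, and Fcgrt and Fcrla to the left. Fcgr4 is filled to the right in tdLN but open at 0.48 ± 0.34 in ndLN. In SSMs Fcgr2b, Fcgr4 and Fcgrt are filled for tdLN against ndLN.

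Fcgr1 (chr3:96282909-96293969, minus strand) encodes CD64, the high-affinity IgG receptor. Its level was 61.3 and 15.1 CPM in SSM ndLN, 171 and 144 CPM in SSM tdLN, 6.26 and 1.07 CPM in MSM ndLN, and 14.2 and 7.001 CPM in MSM tdLN. All SSM libraries lay above all MSM libraries, although the SSM ndLN pools were far apart. Fcgr1 was 10.2-fold higher in SSMs than in MSMs in ndLN (log2 difference 3.35 ± 0.53 SE, adjusted p = 0.00327) and 16.6-fold higher in tdLN (4.05 ± 0.46, adjusted p = 0.00100). The difference in ndLN missed the threshold in the model without pool (adjusted p = 0.0135) and without SSM ndLN pool 1, MSM ndLN pool 1 or MSM ndLN pool 2 (adjusted p up to 0.0322). That in tdLN missed it without either MSM tdLN pool (up to 0.0215). The log2 difference in ndLN was 2.54 without SSM ndLN pool 1 and 4.40 without MSM ndLN pool 1, and in tdLN it was 4.75 without SSM tdLN pool 1 and 3.26 without SSM tdLN pool 2. Between nodes, the log2 difference was 2.34 ± 0.42 in SSMs (adjusted p = 0.0150) and 1.63 ± 0.58 in MSMs (adjusted p = 0.329), so that neither passed.

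Fcgr3 encodes CD16, an activating IgG receptor of lower affinity that NK cells, neutrophils and monocytes also carry. It was measured at 109 and 86.0 CPM in SSM ndLN, 239 and 194 CPM in SSM tdLN, 15.7 and 20.1 CPM in MSM ndLN, and 39.7 and 25.4 CPM in MSM tdLN. The subsets were far apart in both nodes. SSMs exceeded MSMs 5.33-fold in ndLN (log2 difference 2.41 ± 0.23, adjusted p = 0.000335) and 6.71-fold in tdLN (2.75 ± 0.23, adjusted p = 0.000262). Both calls held when any single library was left out. Between nodes the log2 difference was 1.15 ± 0.21 in SSMs (adjusted p = 0.0165) and 0.82 ± 0.24 in MSMs (adjusted p = 0.239).

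Fcgr4 (chr1:171018920-171029761, plus strand) encodes the mouse activating receptor for IgG2 subclasses, found on monocytes, macrophages and neutrophils. Its level was 16.6 and 6.41 CPM in SSM ndLN, 46.0 and 40.4 CPM in SSM tdLN, 10.3 and 5.97 CPM in MSM ndLN, and 11.1 and 10.3 CPM in MSM tdLN. The SSM tdLN libraries lay above the other 6, whose levels overlapped. In SSMs Fcgr4 was 3.95-fold higher in tdLN than in ndLN (log2 difference 1.98 ± 0.31, adjusted p = 0.00908), and in tdLN it was 4.04-fold higher in SSMs than in MSMs (2.01 ± 0.31, adjusted p = 0.00392). In ndLN the subset difference was 0.48 ± 0.34 (adjusted p = 0.364). The node call in SSMs was near the threshold and was lost without pool in the model (adjusted p = 0.0154) and without any one of the 8 libraries (0.0122 to 0.109), with log2 differences from 1.53 without SSM ndLN pool 2 to 2.60 without SSM ndLN pool 1. The subset call in tdLN was lost without 6 of the 8 libraries in turn, all but SSM ndLN pools 1 and 2 (adjusted p up to 0.0581).

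Fcgr1 and Fcgr4 are known as genes that interferons induce, and their promoters were searched for 3 motifs on both strands of the 250 bases before the RefSeq start. The gamma-activated site TTCNNNGAA lay in the Fcgr1 promoter and in 7.18% of 27025 promoters. The interferon-stimulated response element lay in the promoters of Fcgr4 and Fcrla and in 3.04% of promoters. The PU.1 site GAGGAAGT lay in the promoters of Fcgr4 and Fcrl1 and in 2.44% of promoters. The 5 other members had no match to these letters in the window. The following 100 bases upstream of Fcgr1 (chr3:96294020-96294119, minus strand) and of Fcgr4 (chr1:171018820-171018919, plus strand), from RefSeq on GRCm38.p6, are shown because they hold the matches, which are in capitals.
Fcgr1: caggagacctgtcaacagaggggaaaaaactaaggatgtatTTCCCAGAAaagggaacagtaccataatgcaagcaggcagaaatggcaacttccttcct
Fcgr4: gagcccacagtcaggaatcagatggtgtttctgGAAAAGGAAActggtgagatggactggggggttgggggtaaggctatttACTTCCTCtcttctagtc
In the Fcgr4 sequence the first run of capitals is the interferon-stimulated response element, and the second is the PU.1 site read on the opposite strand. A match of letters is a description of the sequence and not a measured binding site.

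Fcer1g (chr1:171229572-171234365, minus strand) encodes the gamma chain that the activating receptors and the high-affinity IgE receptor of mast cells and basophils share. It was measured at 984 and 567 CPM in SSM ndLN, 1508 and 1449 CPM in SSM tdLN, 180.1 and 199.5 CPM in MSM ndLN, and 364 and 313 CPM in MSM tdLN. Each SSM library was above each MSM library. SSMs exceeded MSMs 3.98-fold in ndLN (log2 difference 1.99 ± 0.22, adjusted p = 0.000567) and 4.38-fold in tdLN (2.13 ± 0.22, adjusted p = 0.000599). The call in ndLN was lost without MSM ndLN pool 1 (adjusted p = 0.0118), and that in tdLN without SSM tdLN pool 2 or either MSM tdLN pool (up to 0.0146). Between nodes the log2 difference was 0.96 ± 0.21 in SSMs (adjusted p = 0.0303) and 0.82 ± 0.21 in MSMs (adjusted p = 0.188).

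Of 3 other adaptors, Cd247, the zeta chain that pairs with the T cell receptor, was higher in SSMs in both ndLN and tdLN (log2 difference 3.27 and 3.97), as was Hcst (2.45 and 2.21), which encodes the adaptor DAP10. Tyrobp, which encodes DAP12 and is common in myeloid cells, did not pass, at 0.45 in ndLN and 1.13 in tdLN. Fcer1a and Ms4a2, which encode the alpha and beta chains of the IgE receptor, mark mast cells and basophils. Fcer1a lay between 736 and 1790 counts in SSM ndLN and between 273 and 824 counts in SSM tdLN, and had at most 2 counts in MSM libraries. Ms4a2 lay between 127 and 566 counts in SSM libraries and was at 0 counts in the 4 MSM libraries. Of the 10 other Fc receptor genes tested, 1 was higher (Fcer1a) and 1 lower (Fcrlb) in SSMs in ndLN, where 12.1% of all genes passed. Only Fcrlb passed in tdLN, where 8.69% of all genes did. None passed between nodes in either subset, against 3.04% of all genes in SSMs and 0.0237% in MSMs. Fcrlb, an intracellular relative of Fcrla, lay between 5 and 25 counts in SSM ndLN, 94 and 124 in SSM tdLN, 325 and 346 in MSM ndLN, and 386 and 586 in MSM tdLN, with log2 differences of SSMs from MSMs of -4.79 in ndLN and -2.17 in tdLN.

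Fcgr2b, the inhibitory receptor, had the smallest adjusted p-value of the 9 members between nodes in SSMs. It was measured at 157 and 89.4 CPM in SSM ndLN, 686 and 624 CPM in SSM tdLN, 131 and 149 CPM in MSM ndLN, and 206 and 168 CPM in MSM tdLN. SSM tdLN stood above the other 3 groups, and SSM ndLN overlapped with MSM ndLN. In SSMs, Fcgr2b was 5.43-fold higher in tdLN than in ndLN (log2 difference 2.44 ± 0.23, adjusted p = 0.00197), and within tdLN it was 3.52-fold higher in SSMs than in MSMs (1.82 ± 0.22, adjusted p = 0.00132). In ndLN the subset difference was -0.23 ± 0.22 (adjusted p = 0.499), and between nodes in MSMs the difference was 0.39 ± 0.22 (adjusted p = 0.526). The difference between the node effects of the 2 subsets was 2.05 ± 0.31 on the log2 scale (adjusted p = 0.0355) and did not reach the threshold. The node call in SSMs was lost without SSM ndLN pool 2, SSM tdLN pool 1 or SSM tdLN pool 2 (adjusted p up to 0.0415), and that between subsets in tdLN without any of the 4 tdLN libraries (up to 0.0258).

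Macrophage markers moved with Fcgr2b in SSMs. Of the 11 tested, 7 were higher in tdLN than in ndLN, with a median log2 difference of 2.03. Their summed level was 15402 to 22097 TPM in SSM ndLN and 30611 to 44473 TPM in SSM tdLN. Most of that sum was Lyz2, at 14342 to 20730 TPM in SSM ndLN and 28009 to 41360 TPM in SSM tdLN. Monocyte markers summed to 1558 to 3275 TPM in SSM ndLN and 5126 to 5272 TPM in SSM tdLN. Scaled to the macrophage markers instead of to all genes, the node difference in SSMs was 1.12 for Fcgr2b, 0.58 for Fcgrt and 0.66 for Fcgr4 on the log2 scale, 0 of 9 members passed, against 21% of all genes, nearly all of them lower (4399 of 4433), and the median of all genes was -1.37. With that scaling the subset difference of Fcgr2b in tdLN was -0.13. Other inhibitory receptors on myeloid cells were also higher in SSM tdLN than in SSM ndLN, with 4 of 9 higher, against 1.99% of all genes, none lower and a median of 1.73. They were Clec4a2 (log2 difference 2.87), which encodes a C-type lectin with an inhibitory motif, Pirb (1.94), a receptor for class I molecules, Sirpa (1.83), the receptor of CD47, and Cd300a (1.17), a receptor for phospholipids.

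The activating receptors were set against Fcgr2b within each library, as the sum of Fcgr1, Fcgr3 and Fcgr4 per length over Fcgr2b per length. The ratio was 3.68 and 3.92 in SSM ndLN, 2.02 and 1.85 in SSM tdLN, 0.866 and 0.652 in MSM ndLN, and 1.04 and 0.882 in MSM tdLN. Each SSM library had a higher ratio than each MSM library, and within SSMs the tdLN libraries had lower ratios than the ndLN libraries. Over both nodes the log2 ratio was 1.67 higher in SSMs than in MSMs (exact permutation test within node type, two-sided p = 0.0556), which is the smallest p that this design allows. The ratio was 5.05-fold higher in SSMs in ndLN and 2.02-fold higher in tdLN. From ndLN to tdLN it was 1.96-fold lower in SSMs and 1.28-fold higher in MSMs, and over both subsets the log2 difference was -0.31 (exact permutation test, two-sided p = 0.333). The opposite directions in the 2 subsets were not tested against each other. The ratio is that of the whole sorted sample, and NK cells and monocytes also carry Fcgr3. NK and cytotoxic markers summed to 7081 to 8501 TPM in SSM ndLN, 4145 to 6403 TPM in SSM tdLN and 43.6 to 251 TPM in MSMs. Monocyte markers summed to 1558 to 3275, 5126 to 5272 and 389 to 521 TPM in the same order. The part of these cells in the ratio was not tested.

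**Figure D4:**
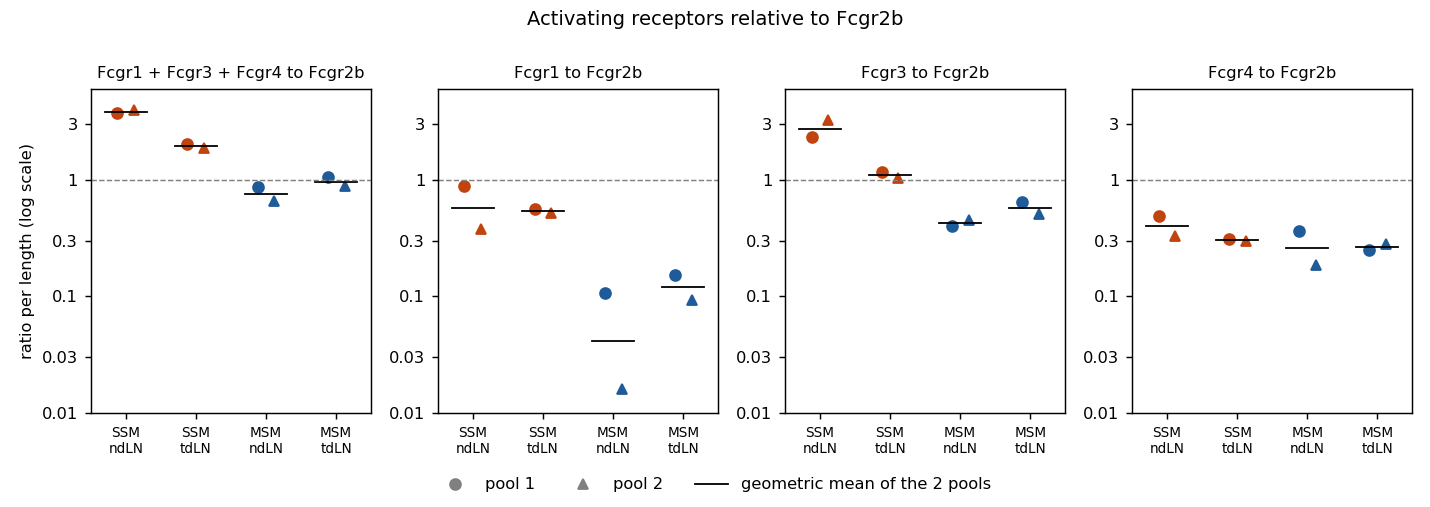
Ratio of activating receptors to Fcgr2b per length of merged exons (log scale, with a dashed line at 1) in the 8 libraries, for the sum of the 3 activating receptors and for each alone. The position relative to the line depends on the length used, and the part of other cell types in the ratio was not tested. The sum to Fcgr2b lay between 1.85 and 3.92 in SSM libraries and between 0.652 and 1.04 in MSM libraries, and Fcgr3 took the largest share of the activating sum in all 8 libraries.

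Fcgr3 made up 46.1% to 81.9% of the activating sum. The ratio of Fcgr3 to Fcgr2b was 2.31 and 3.21 in SSM ndLN, 1.16 and 1.04 in SSM tdLN, 0.3995 and 0.451 in MSM ndLN, and 0.642 and 0.506 in MSM tdLN. With merged exon lengths, this ratio lay above 1 in SSM libraries and below 1 in MSM libraries. Those lengths are 5790 bases for Fcgr2b and 1736 for Fcgr3, whereas the longest transcripts have 3544 and 1347 bases. Which side of 1 the ratio falls on, chiefly in SSM tdLN, therefore depends on the length used. Differences between libraries in this ratio do not. For Fcgr1 to Fcgr2b the ratios were 0.875 and 0.378, 0.556 and 0.516, 0.106 and 0.0161, and 0.154 and 0.0934 in the same order of groups. SSMs exceeded MSMs by 1.81 for Fcgr3 and by 2.98 for Fcgr1 on the log2 scale (exact permutation test, p = 0.0556 each, adjusted p = 0.167 over the 3 receptors and 2 contrasts). The ratio of Fcgr4 to Fcgr2b lay between 0.185 and 0.487 in all libraries, with a subset difference of 0.42 (exact permutation test, p = 0.167, adjusted p = 0.333). Node differences in these 3 ratios, over both subsets, had adjusted p-values between 0.500 and 0.556 in the same exact permutation test.

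Fcgrt (chr7:45092990-45103851, minus strand) encodes the neonatal Fc receptor chain, and its order between the subsets was opposite to that of Fcgr1 and Fcgr3. Its level was 18.5 and 13.1 CPM in SSM ndLN, 59.7 and 59.0 CPM in SSM tdLN, 244 and 223 CPM in MSM ndLN, and 246 and 296 CPM in MSM tdLN. All MSM libraries were higher than all SSM libraries, and SSM tdLN lay between SSM ndLN and MSMs. Compared with MSMs, Fcgrt was 14.8-fold lower in SSMs in ndLN (log2 difference -3.88 ± 0.21, adjusted p = 2.93e-05) and 4.57-fold lower in tdLN (-2.19 ± 0.19, adjusted p = 0.000300). Both calls held without any single library. In SSMs it was 3.76-fold higher in tdLN than in ndLN (1.91 ± 0.20, adjusted p = 0.00246), a call that was lost without SSM ndLN pool 2, SSM tdLN pool 1 or SSM tdLN pool 2 (adjusted p up to 0.0445). In MSMs the node difference was 0.22 ± 0.18 (adjusted p = 0.680). The node effects of the subsets differed by 1.69 ± 0.27 (adjusted p = 0.0382), which did not reach the threshold. B2m, the light chain of the receptor, lay between 11025 and 21949 TPM in the 8 libraries and passed in no contrast. Dendritic cell markers were, like Fcgrt, higher in MSMs, with 5 of 8 in ndLN and 6 of 8 in tdLN, against 6.06% and 3.52% of all genes. Their part in the difference was not tested.

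The 3 remaining members are best known from B cells. Fcer2a and Fcrl1 were low in all groups, while Fcrla was low in SSMs and, per length, lay above Fcgr3 in MSM ndLN. Of the B cell markers, Ms4a1 lay between 0.603 and 6.69 TPM and Pax5 at 0.176 TPM or less. Ighm, the immunoglobulin heavy chain of IgM, lay between 335 and 2053 TPM, Cd79b between 10.3 and 45.0 TPM, and Blk, a kinase, between 75.6 and 197 TPM in SSMs and between 1.07 and 8.72 TPM in MSMs. The summed level of 10 B cell markers was 469 to 615 TPM in SSMs, 459 to 463 TPM in MSM tdLN, and 514 and 2085 TPM in MSM ndLN, so that a single MSM ndLN library stood apart. Of these 10, 1 was higher and 1 lower in SSMs in ndLN, where 12.1% of all genes passed. In tdLN 1 was higher in SSMs, where 8.69% of all genes passed. None passed between nodes, against 3.04% of all genes in SSMs and 0.0237% in MSMs.

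Fcrla (chr1:170917576-170927583, minus strand) encodes an Fc receptor-like protein that stays inside the cell. It had 18 and 69 counts in SSM ndLN and 65 and 70 counts in SSM tdLN, against 1468 and 1516 counts in MSM ndLN and 893 and 733 counts in MSM tdLN. That is 0.331 to 1.60 CPM in SSMs and 16.1 to 37.6 CPM in MSMs. Fcrla was 42.3-fold lower in SSMs in ndLN (log2 difference -5.40 ± 0.42, adjusted p = 0.000122) and 12.3-fold lower in tdLN (-3.62 ± 0.40, adjusted p = 0.000923). The log2 difference in ndLN was -4.55 without SSM ndLN pool 1 and -6.86 without SSM ndLN pool 2, and passed in both cases. The call in tdLN was lost without SSM tdLN pool 1, SSM tdLN pool 2 or MSM tdLN pool 1 (adjusted p up to 0.0242). Node differences were 0.86 ± 0.65 in SSMs (adjusted p = 0.482) and -0.92 ± 0.28 in MSMs (adjusted p = 0.260).

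Fcrl1 (chr3:87376387-87402934, plus strand) encodes a surface receptor of B cells. It was measured at 5.59 and 5.07 CPM in SSM ndLN, 15.7 and 14.3 CPM in SSM tdLN, 14.6 and 18.4 CPM in MSM ndLN, and 7.37 and 5.79 CPM in MSM tdLN. The tdLN libraries were the high ones in SSMs and the low ones in MSMs. Fcrl1 was 3.11-fold lower in SSMs in ndLN (log2 difference -1.64 ± 0.25, adjusted p = 0.00297), a call lost without SSM ndLN pool 1, SSM ndLN pool 2, SSM tdLN pool 1, SSM tdLN pool 2 or MSM ndLN pool 2 (adjusted p up to 0.0288). In tdLN the subset difference was 1.19 ± 0.25 (adjusted p = 0.0167), and the node difference in SSMs was 1.49 ± 0.25 (adjusted p = 0.0131). Both passed in the model without pool (adjusted p = 0.00820 and 0.00639). In MSMs the node difference was -1.34 ± 0.25 (adjusted p = 0.0972), and the interaction was 2.83 ± 0.36 (adjusted p = 0.0210). The interaction of Fcrl1 had the smallest adjusted p-value among the 9 members.

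Fcer2a (chr8:3681737-3694175, minus strand) was counted 1 and 14 times in SSM ndLN, 92 and 63 times in SSM tdLN, 52 and 227 times in MSM ndLN, and 182 and 253 times in MSM tdLN. The single count corresponds to 0.0184 CPM, with an exact 95% Poisson interval of 0.000466 to 0.102 CPM that covers counting error only. SSM ndLN lay below the other groups. The fitted log2 difference of SSMs from MSMs in ndLN was -4.42 ± 0.94 (adjusted p = 0.00970), but the mean normalized count of 57.0 was under the cut-off of 100, so the gene was not called. Without single libraries it ranged from -6.91 to -3.26. In tdLN the difference was -1.49 ± 0.54 (adjusted p = 0.108). Between nodes it was 3.60 ± 1.07 in SSMs (adjusted p = 0.0751), ranging from 2.85 to 6.06 without single libraries, and 0.66 ± 0.49 in MSMs (adjusted p = 0.644).

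Downstream of the receptors, the activating pathway runs through Src-family kinases, Syk, adaptors and phospholipase C gamma. In ndLN, 4 of 17 such genes had a higher and 3 a lower level in SSMs compared with MSMs, and 6 were higher and none lower in tdLN. Of all genes, 6.01% were higher and 6.06% lower in ndLN, and 5.16% higher and 3.52% lower in tdLN. Of all genes, 1.99% were higher and 1.05% lower in tdLN than in ndLN in SSMs. Between nodes in SSMs, 5 of the 17 activating genes were higher in tdLN and none lower, with a median log2 difference of 0.65, beside -0.04 over all genes. Among them were Fgr (1.81), which encodes a Src-family kinase, Btk (1.27), a Tec-family kinase, and Prkcd (1.05), a protein kinase C. Of 9 genes of inhibitory signalling, 2 were higher and 2 lower in SSMs in ndLN, 3 were higher in tdLN, and between nodes in SSMs only Ptpn6 passed (1.36), which encodes the phosphatase SHP-1. In MSMs no gene of either list passed between nodes. Of 12 interferon gamma response genes, 1 was higher and 1 lower in SSM tdLN than in SSM ndLN. The higher was Ciita (2.42), the regulator of class II genes, and the lower was Socs1 (-1.63), an inhibitor of cytokine signalling.

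The genes whose log2 CPM ran most like a member over the 8 libraries were listed among 9980 genes with a mean normalized count over 100. For Fcgr1 they were Oasl2 (Pearson r = 0.995), Oas2 (0.990) and Gm5431 (0.989), of which the first pair are known as interferon-induced genes. Fcgr3 ran with Ifnar2 (0.996), Itgam (0.995) and Camk1 (0.993), and Itgam encodes CD11b, on which the cells were sorted. Fcgr4 ran with Xaf1 (0.985), Sh3bp2 (0.982) and Ifitm3 (0.982), and Fcgr2b with Gpalpp1 (0.992), Mir22hg (0.990) and H1f0 (0.990). Fcer1g shared Ifnar2 (0.994) with Fcgr3 and was followed by Tmcc1 (0.994) and Tent5a (0.993). Fcgrt ran with Naaa (0.998), Dnase1l3 (0.997) and Shtn1 (0.997), and Fcrla with Hepacam2 (0.998), Wdr91 (0.996) and Mpp6 (0.995). The closest gene to Fcer2a was Lage3 (0.977) and that to Fcrl1 was Nfe2l2 (0.964). Among the members, Fcgr3 and Fcer1g had an r of 0.989, Fcgr1 and Fcer1g 0.959, Fcgr2b and Fcgr4 0.935, and Fcgrt and Fcrla 0.907. These values describe 8 libraries in 4 groups, and high values arise wherever genes share the differences between the groups.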

How the data were processed

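RNA was sequenced in 8 libraries of sorted cells, each on 2 lanes, which the labels list as 16 samples. The labels number 2 pools, whereas the methods and sample matrix of the study number 4. The label of an SSM tdLN library gives no pool number, and this library was given the number left free in its group. The labels do not state that libraries with the same number came from the same mice. The p-values rest on taking the 2 pools as right, and those of tests that use pool rest on this pairing as well. SMART-Seq v4 was the library kit. Per the submitters' processing notes and methods, reads were demultiplexed with bcl2fastq 2.20.0.422, trimmed with Trimmomatic 0.36 and aligned to GRCm38 with STAR 2.5.3a. The deposited values are raw counts per gene, without normalization or filtering. The strand setting is not given in the sources used here. Reads of Fcgr2b and Fcgrt therefore cannot be told apart from those of the antisense genes Gm38204 and Gm45669 where they overlap. Those genes were assigned 12 and 1 counts over the 8 libraries. The pseudogene Gm2962, which overlaps Fcrla on the same strand, was assigned 45 counts. Symbols, coordinates and lengths came from GENCODE M21, which matched 55240 row names.

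The 2 lanes of each library agreed within sampling noise (chi-square per degree of freedom 0.955 to 1.02, against 29.3 to 53.1 between pools) and were summed. Genes needed 10 counts in all and a count in 2 or more samples. Libraries were scaled by TMM (factors 0.902 to 1.15) and fitted in edgeR 4.0.16 (R 4.3.3, limma 3.58.1) with 4 groups and pool. Contrasts used the quasi-likelihood test with Benjamini-Hochberg adjustment. Ratios used an exact permutation test in scipy 1.17.1. Other steps used DESeq2 1.42.0, Python 3.11.15, pandas 2.3.3, numpy 2.4.6 and matplotlib 3.10.9. The edgeR fit, in its current and legacy forms, was tested on simulated counts for tdLN against ndLN in SSMs only. Those counts had a fixed spread and no pool effect. DESeq2, the other contrasts and the permutation tests were not tested on simulated data. The edgeR p-values rest on the spread left between libraries of a group after the pool term, with information shared over genes. The permutation tests exchange library labels within node type or subset and, apart from the sign-flip test, do not use pool. Between 42972328 and 48130352 reads per library put 3 counts at 0.0623 to 0.0698 CPM, which limits Fcer2a and Fcrla in SSMs.

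Pool was a term because each pool gave a sample to every group, per the methods of the study. Deviations from group means of same-numbered libraries had correlations of -0.194 to 0.148 over 9988 genes. These values, of both signs, do not establish the pairing.

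The members and all lists were chosen with earlier results of these data known. Named genes were the members, any gene of the lists of other Fc receptors, FcRn light chain, other adaptors and macrophage markers, of other lists the 3 most abundant and the 4 called genes with the largest change in a contrast, and the 3 genes most like each member. Ms4a1 and Pax5 were named after their values were seen. Alternatives were no pool term, DESeq2, the legacy quasi-likelihood fit, other scalings, filters and cut-offs, single lanes, only the groups compared and each library left out. Scaling to macrophage markers without Lyz2 was added after the data were seen. Imaging and flow cytometry were not analysed here, and values of some list genes are not reported here.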

Additional observations from a re-analysis of the deposited data

Results flagged for a closer look

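The difference between tdLN and ndLN took opposite directions in SSMs and MSMs, in both pools as numbered here, for 2 genes and 2 ratios. For Fcrl1, tdLN minus ndLN of the same pool number was 1.34 and 1.33 in SSMs and -0.902 and -1.52 in MSMs on the log2(CPM + 1) scale, a gap of 2.55, and the interaction had an adjusted p of 0.0210 in edgeR. For Fcrla it was 0.885 and 0.121 in SSMs and -0.771 and -1.02 in MSMs, a gap of 1.40, and the interaction had an adjusted p of 0.353 in edgeR. For the log2 ratio of the activating sum to Fcgr2b it was -0.860 and -1.08 in SSMs and 0.271 and 0.436 in MSMs, a gap of -1.32. For the log2 ratio of Fcgr3 to Fcgr2b it was -0.997 and -1.63 in SSMs and 0.684 and 0.167 in MSMs, a gap of -1.74. The difference between subsets was not tested for either ratio.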

How the results depend on the processing

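Of 846 alternative values of the 9 genes in 5 contrasts, 736 kept their direction and their side of the threshold. These values leave out the Holm adjustment and the other cut-offs on p and mean count. Genes that stayed not called count among the 736, so this number says little about how firm the calls were. In the main fit no member was called between nodes in MSMs or in the interaction. Without pool as replicate block, 5, 8, 3, 0 and 0 members passed in SSMs against MSMs in ndLN and tdLN, in tdLN against ndLN in SSMs and MSMs, and in the interaction, beside 6, 7, 3, 0 and 0 with it. Of all genes, 13.3%, 9.57%, 3.78%, 0.0427% and 0.0522% passed without it, beside 12.1%, 8.69%, 3.04%, 0.0237% and 0.0379% with it. With the pairing kept, the ratio difference between subsets was 1.67 (exact sign-flip permutation test, p = 0.125, the smallest possible). Leaving out each library in turn gave 4 to 6, 2 to 7, 0 to 2, 0 and 0 members, and 0 for nodes in SSMs without SSM ndLN pool 2 or either SSM tdLN pool, where 0.00949% to 0.0854% of all genes passed. It moved log2 differences across 0 for Fcgr2b (-0.61 to 0.12) and Fcgr4 (-0.16 to 0.90) between subsets in ndLN, for Fcgrt between nodes in MSMs (-0.019 to 0.44), and in the interaction for Fcgr1 (-0.37 to 1.43), Fcgr3 (-0.074 to 0.70) and Fcer1g (-0.22 to 0.53). A Holm adjustment left 1 member in the first contrast (0.982% of all genes) and 0 in the next pair (0.512% and 0.0332%). For nodes in SSMs, 0 members passed with only the groups compared (0% of all genes), 5 with filterByExpr (4.96%), 6 on lane 4 alone (3.87%), 7 at an adjusted p under 0.05 (8.69%) and 7 with DESeq2 (9.36%). DESeq2 called 2 between nodes in MSMs (2.39% of all genes) and 3 in the interaction (3.35%), as did an adjusted p under 0.05 there (3, with 1.02% of all genes). Scaling to macrophage markers, with and without Lyz2 (80.1% to 86.9% of their counts), called 3 between subsets in tdLN (39.1% and 41.1% of all genes) and 0 between nodes in SSMs (21% and 35.8%). It turned Fcgr4 between subsets in ndLN (-0.14 and -0.19), Fcgr2b (-0.13 and -0.14) and Fcrl1 (-0.76 and -0.76) between subsets in tdLN, and Fcgr3 (-0.20 and -0.40), Fcer1g (-0.36 and -0.58) and Fcrla (-0.48 and -0.68) between nodes in SSMs. Without Lyz2 it also turned Fcrl1 between nodes in SSMs (-0.056) and Fcgrt between nodes in MSMs (-0.017). In the interaction it turned Fcgr1 (-0.58 and -0.53), Fcgr3 (-1.09 and -0.98) and Fcer1g (-1.22 and -1.18). The node difference of the ratio turned from -0.31 to 0.0301 as a mean of single log2 ratios and to 0.059 without Fcgr3, which also took the subset difference to 1.40, and the range without single libraries was -0.411 to -0.207 and 1.57 to 1.78. The causes were not tested. With 2 pools a group and lone libraries assumed to vary like the rest, differences near the threshold are fragile, and Fcer2a and Fcrla in SSMs are limited by depth.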
